A study of Mus musculus with 10 samples.

Results

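NRF2, the transcription factor encoded by Nfe2l2, its inhibitor Keap1 and 8 of its classical antioxidant targets (Nqo1, Hmox1, Gclc, Gclm, Txnrd1, Srxn1, Gsr and Txn1) were followed at the RNA level in mSCLC-2405 cells. The 10 genes were chosen by symbol and not by any measured value, and each has 1 row among the 26335 rows of the expression table. mSCLC-2405 is a mouse small cell lung cancer line from a primary lung tumour of a mouse in which tumour suppressor genes, Rb1 among them, were deleted through an adenoviral Cre given into the airways, so all libraries share this origin and this genotype. The cells were cultured for 48 h with 250 μM stiripentol, an antiseizure drug, or with vehicle (DMSO per the labels), and the comparison asks what the drug does to gene expression. There were 5 control and 5 stiripentol libraries, all of 1 line. The study equates its sample numbers with samples of individual mice, which libraries of 1 line are not, and separate cultures are not named, so p-values measure the spread between libraries only.

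NRF2 is a basic leucine zipper factor that pairs with small MAF proteins and binds antioxidant response elements near the genes it activates. In unstressed cells KEAP1 presents NRF2 to a CUL3 ubiquitin ligase, and NRF2 is degraded. Oxidants or electrophiles modify cysteines of KEAP1, NRF2 escapes degradation, and genes for glutathione synthesis, thioredoxin reduction, quinone detoxification and heme breakdown are transcribed. Control of NRF2 is thus mainly at the protein level, which RNA sequencing does not measure. Loss of KEAP1 function and a constantly active NRF2 are well known in lung cancers.

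Some members (Nfe2l2, Gclm, Txnrd1 and Srxn1) had a match to the core of the antioxidant response element, or to its close relative, in the stretch from 250 bases before to 50 bases after an annotated start. The stretches around these matches are shown because this element is where NRF2 and its rivals bind. Sequences and starts are those of RefSeq on GRCm38.p6, written 5′ to 3′ on the strand of the gene, and capitals mark the matches. Where the match lies on the other strand, the capitals read as its reverse complement.
Nfe2l2, chr2:75704865-75704913, minus strand: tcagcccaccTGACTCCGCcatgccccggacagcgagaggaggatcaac
Gclm, chr3:122245393-122245461, plus strand: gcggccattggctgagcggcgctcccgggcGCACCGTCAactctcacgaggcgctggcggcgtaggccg
Txnrd1, chr10:82859084-82859152, plus strand: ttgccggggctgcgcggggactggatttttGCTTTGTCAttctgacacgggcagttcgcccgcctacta
Srxn1, chr2:152105336-152105517, plus strand: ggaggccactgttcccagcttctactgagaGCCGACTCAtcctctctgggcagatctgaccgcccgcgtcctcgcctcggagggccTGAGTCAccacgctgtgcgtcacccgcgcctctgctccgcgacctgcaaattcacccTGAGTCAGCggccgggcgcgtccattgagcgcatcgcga

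Both strands were searched for TGACNNNGC, the core of the element, for TGAGNNNGC, a variant of it, and for TGAGTCA, the AP-1 site that the variant can contain. Nfe2l2 itself held TGACTCCGC from base -240, counted from the start site. Gclm held TGACGGTGC from base -134 and Txnrd1, at 1 of its 3 annotated starts, TGACAAAGC from base -92, both on the other strand. In Srxn1, TGAGTCAGC began at base -45 and overlapped a TGAGTCA, a further TGAGTCA began at base -102, and TGAGTCGGC began at base -158 on the other strand. Its only match to the core itself, TGACCTAGC, began at base 28 after the start on the other strand, outside the stretch shown. Among 32851 such windows of the whole table, 12.4% held TGACNNNGC, 17.6% held TGAGNNNGC and 5.2% held TGAGTCA, so these are letter matches that many promoters share. The windows of Keap1, Nqo1 and Txn1 held no match of these letters. Hmox1, Gclc and Gsr had no window in the table.

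The expression values were log2 CPM, the reads of a gene relative to the total of its library on the log2 scale. Control libraries held 22375625 to 65299372 reads, with control 5 the lowest, and stiripentol libraries 55015760 to 60670901 reads. In each group the libraries formed a pair of clusters: across genes the correlation was 0.983 to 0.997 between libraries of the same group and cluster and 0.920 to 0.939 between the clusters of a group. Controls 1 to 3 stood apart from controls 4 and 5, and stiripentol 1 and 2 from stiripentol 3 to 5. Controls 1 to 3 were also normalized apart from the other 7 libraries, since a gene without reads has a value of -4.82 in them and of -4.74 elsewhere. The replicate numbers of the study's own table, to which the libraries were tied by their values, place controls 4 and 5 with stiripentol 1 and 2, and controls 1 to 3 with stiripentol 3 to 5. Between groups the correlation was 0.8805 to 0.9357 (median 0.922) within these sets and 0.8402 to 0.9377 (median 0.903) across them. These ranges overlap and do not settle the match, and the labels do not give it. Effects are thus given over all libraries and also within these sets. The sets are called the set of 4 (2 libraries a group) and the set of 6 (3 a group).

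**Figure D1:**
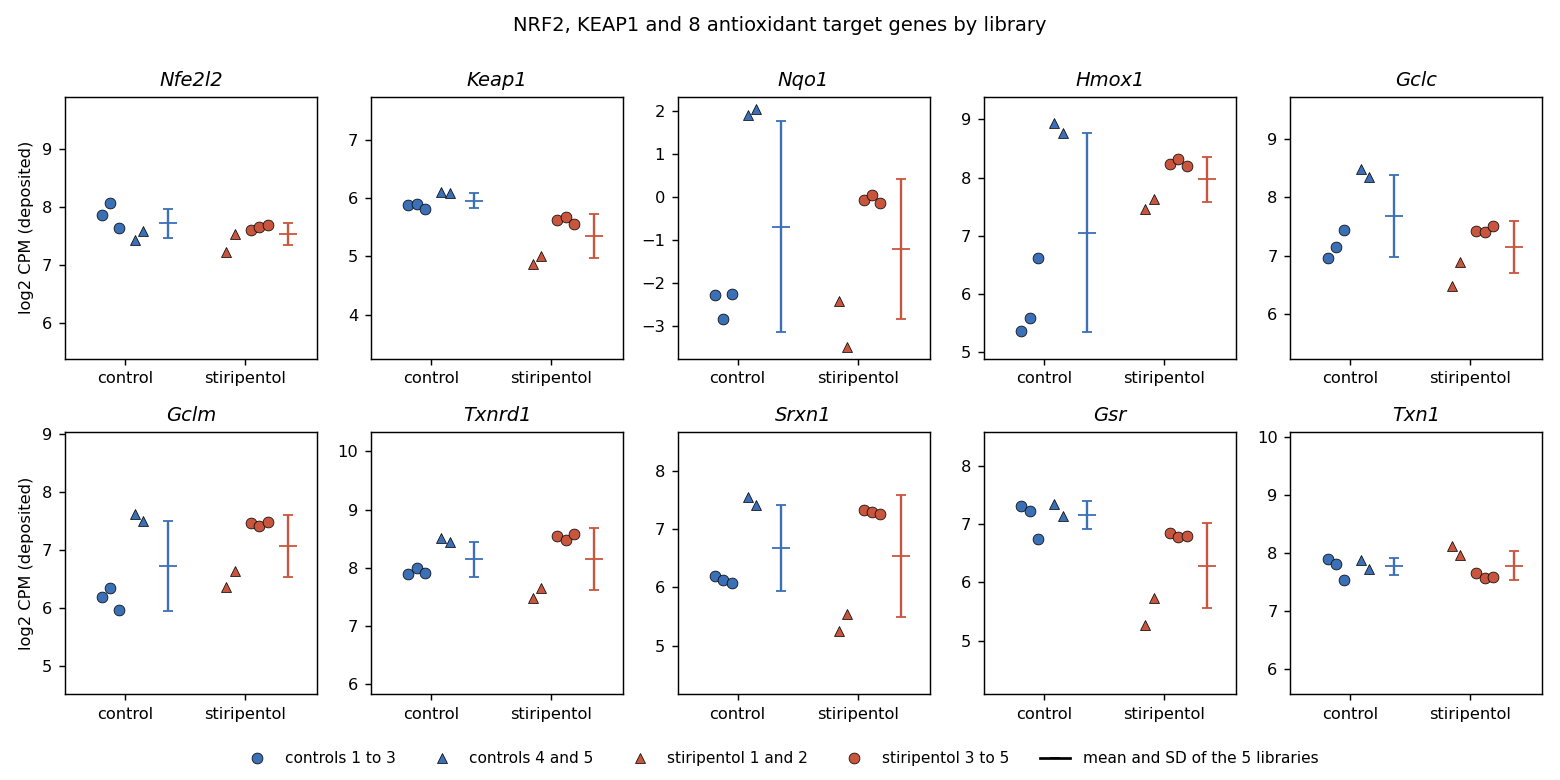
Log2 CPM (y axis) of each of the 10 genes in each of the 5 control and 5 stiripentol libraries, with points marked by library set and bars at the group mean ± SD. Hmox1, Gclc, Gclm, Srxn1 and Nqo1 are at least 1 log2 unit higher on average in controls 4 and 5 than in controls 1 to 3, while Nfe2l2 and Txn1 vary little.

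Keap1 was the only member to pass the test over all libraries, and it was lower with stiripentol. Nfe2l2, and each of the 7 targets that could be tested, did not pass the test. Groups were compared with limma on 12306 genes, those whose log2 CPM averaged above 0 over all libraries. A gene was called at a Benjamini-Hochberg adjusted p below 0.05, and Nqo1 lay under the filter. Among all genes tested, 14.1% were called lower and 13.6% higher, and 1 lower and 0 higher of 9 tested members is not far from these shares. Unadjusted, 2 members had p below 0.05, Keap1 and Gsr, where 41.7% of all genes did. The median log2 change of the 9 members was -0.13, beside -0.06 over all genes.

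Nfe2l2 (chromosome 2, 75675513 to 75704641, minus strand; GRCm38 with GENCODE M21 here and for the genes that follow) gave 7.87, 8.07, 7.64, 7.43 and 7.59 log2 CPM in controls 1 to 5. With stiripentol 1 to 5 it gave 7.22, 7.54, 7.60, 7.65 and 7.68. The groups overlapped, and the values of all 10 libraries lay within 1 log2 unit. The difference was -0.18 ± 0.14 (SE; 95% interval -0.49 to 0.12; limma adjusted p = 0.339), so any change of the factor's own mRNA was small on this scale. In the set of 4 it was -0.13 and in the set of 6 -0.22, with adjusted p-values of 0.353 and 0.104.

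Keap1 (chromosome 9, 21229730 to 21239361, minus strand), the adaptor that hands NRF2 to the ubiquitin ligase, was at 5.88, 5.90, 5.82, 6.11 and 6.08 log2 CPM in the controls. It was at 4.88, 5.00, 5.63, 5.67 and 5.56 in the stiripentol libraries. Every stiripentol library was below every control library, a separation of groups that 27.2% of all genes tested showed, and stiripentol 1 and 2 were the lowest. The mean fell from 5.96 ± 0.13 to 5.35 ± 0.38 (SD, n = 5 each), a log2 change of -0.61 ± 0.18 (SE; limma adjusted p = 0.0262). Keap1 was lower in both sets, by -1.16 ± 0.11 in the set of 4 and -0.25 ± 0.06 in the set of 6 (SE; adjusted p = 4.43e-06 and 0.00857). The call over all libraries was lost without control 4, control 5 or stiripentol 2, with adjusted p-values of 0.0506, 0.0511 and 0.0624. An antisense gene, Gm16754, overlaps Keap1, but held 496 reads over all libraries against 28985 of Keap1, and whether the counting used strand is not given in the sources used here.

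Hmox1 (chromosome 8, 75093621 to 75100589, plus strand), which encodes the inducible heme oxygenase, varied most among the tested members. Controls 1 to 3 gave 5.36, 5.58 and 6.62 log2 CPM, and controls 4 and 5 gave 8.94 and 8.77. Stiripentol 1 to 5 gave 7.47, 7.63, 8.23, 8.31 and 8.20. All stiripentol libraries thus lay between both kinds of control: above controls 1 to 3 and below controls 4 and 5. The pooled difference was 0.91 ± 0.68 (SE; 95% interval -0.59 to 2.41; limma adjusted p = 0.326). Each control subset was also set against all stiripentol libraries after the values were seen, so these p-values and counts are descriptive. A rise against the lower subset follows in part from that choice. Against controls 1 to 3 alone, all 5 stiripentol libraries were higher by 2.11 (limma adjusted p = 0.00206). Set against controls 4 and 5 alone, the difference was -0.89 (adjusted p = 0.0547). Of the tested members, 2, Hmox1 and Gclm, were called higher and 0 lower against controls 1 to 3, where 20.1% and 16.4% of all genes were. Against controls 4 and 5, 1, Gclc, was called lower and 0 higher, where 9.87% and 10.1% of all genes were.

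Nqo1 (chromosome 8, 107388225 to 107403206, minus strand), the quinone reductase widely used as a reporter of NRF2 activity, was scarce. Controls 1 to 3 held 11, 6 and 11 reads of it, whereas controls 4 and 5 held 237 and 93. Stiripentol 1 and 2 held 9 and 3 reads, and stiripentol 3 to 5 held 53, 60 and 48. On the log2 CPM scale controls 1 to 3 were at -2.29, -2.85 and -2.26 and controls 4 and 5 at 1.91 and 2.07. The mean of controls 4 and 5 exceeded that of controls 1 to 3 by 4.46, the widest gap of any member between these subsets. With its mean of all libraries below 0, Nqo1 was not tested, and in a fit without the filter the difference was -0.53 ± 1.19 (SE; limma adjusted p = 0.793). Every other member had at least 1515 reads in each library.

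Gclc and Gclm encode the catalytic and the modifier subunit of glutamate-cysteine ligase, the rate-limiting enzyme of glutathione synthesis. Gclc (chromosome 9, 77754535 to 77794485, plus strand) was at 6.96, 7.14, 7.45, 8.49 and 8.35 log2 CPM in controls 1 to 5 and at 6.47, 6.89, 7.43, 7.40 and 7.51 with stiripentol. Controls 4 and 5 were above all other libraries, and the pooled difference was -0.54 ± 0.33 (SE; limma adjusted p = 0.231). Gclm (chromosome 3, 122245557 to 122270732, plus strand) was at 6.18, 6.34, 5.96, 7.61 and 7.49 in controls and at 6.37, 6.64, 7.47, 7.41 and 7.48 with stiripentol. Its pooled difference was 0.36 ± 0.37 (SE; adjusted p = 0.484). Controls 4 and 5 were again the highest libraries, but for Gclm the stiripentol libraries came nearer to them than for Gclc. Gclm overlaps Gm17494 on the other strand, with 4449 reads over all libraries against 70865 of Gclm.

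Gsr (chromosome 8, 33652523 to 33698163, plus strand), the reductase that returns oxidized glutathione to its reduced form, was at 7.31, 7.22, 6.75, 7.34 and 7.15 log2 CPM in controls. It was at 5.27, 5.73, 6.85, 6.78 and 6.79 with stiripentol. Stiripentol 1 and 2 were far below all other libraries, and the remaining stiripentol libraries were at the level of control 3. The difference of -0.87 ± 0.31 (SE; 95% interval -1.55 to -0.20) missed the threshold, with a limma adjusted p of 0.0556. It passed without stiripentol 3, 4 or 5, with adjusted p-values of 0.0409, 0.0471 and 0.0431.

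The remaining members belong to the thioredoxin and peroxiredoxin systems. Txnrd1 (chromosome 10, 82833951 to 82897712, plus strand), the cytosolic thioredoxin reductase, was at 7.89, 7.99, 7.91, 8.52 and 8.44 log2 CPM in controls and at 7.49, 7.65, 8.55, 8.48 and 8.58 with stiripentol. Srxn1 (chromosome 2, 152105516 to 152111376, plus strand), which repairs overoxidized peroxiredoxins, was at 6.20, 6.12, 6.08, 7.54 and 7.42 in controls and at 5.26, 5.55, 7.33, 7.30 and 7.26 with stiripentol. Both genes had the same 3 levels: stiripentol 1 and 2 were lowest, controls 1 to 3 were next, and controls 4 and 5 stood near stiripentol 3 to 5 at the top. Their pooled differences were -0.002 ± 0.25 and -0.13 ± 0.50 (SE; limma adjusted p = 0.995 and 0.855). Txn1 (chromosome 4, 57943373 to 57956411, minus strand), thioredoxin itself, was at 7.90, 7.82, 7.53, 7.88 and 7.72 in controls and at 8.13, 7.97, 7.65, 7.58 and 7.59 with stiripentol. The spread of Txn1 was small, stiripentol 1 and 2 were its highest libraries, and the difference was 0.01 ± 0.13 (SE; adjusted p = 0.949). Its pseudogene copy Txn-ps1 had 1 read in all.

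Within the library sets most targets did change, and several changed in opposite directions. The clusters were seen in these data, so p-values within the sets are descriptive. The directions rest on the match of clusters across groups, which the labels do not give. In the set of 4, 7 of the 9 tested members were called lower and 0 higher, where 46.5% of all genes were called lower and 25.7% higher. In the set of 6, 4 members were called higher and 1, Keap1, lower, where 37.7% of all genes were called higher and 27% lower. The 4 that rose there were Hmox1, Gclm, Txnrd1 and Srxn1, and the same 4 fell in the set of 4, whereas 13.7% of all genes were called in both sets with opposite signs. The median of the 9 members was -1.16 in the set of 4 and 0.26 in the set of 6, beside -0.25 and 0.08 over all genes.

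Srxn1 had the largest fall of the tested members in the set of 4, -2.08 ± 0.12, and rose by 1.16 ± 0.06 in the set of 6 (SE; limma adjusted p = 1.42e-07 and 6.63e-06). Hmox1 fell by 1.31 ± 0.11 and rose by 2.40 ± 0.29 (adjusted p = 1.15e-06 and 2.82e-04). Gclm fell by 1.05 ± 0.12 and rose by 1.29 ± 0.10, and Txnrd1 fell by 0.91 ± 0.10 and rose by 0.60 ± 0.06, each with adjusted p-values of at most 1.09e-04. The glutathione enzymes Gclc and Gsr fell by the same 1.74 in the set of 4, with adjusted p-values of 8.09e-07 and 1.60e-06, while in the set of 6 their differences of 0.26 and -0.29 did not pass (adjusted p = 0.083 and 0.098). Nqo1, not tested, was lower by -4.95 in the set of 4 and higher by 2.42 in the set of 6. Txn1 was called in neither set, at 0.25 and -0.15 (adjusted p = 0.0521 and 0.215).

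The difference between the effects of the sets was itself tested as an interaction in limma. It passed for 8 of the 9 tested members, all but Nfe2l2, where 63.3% of all genes passed. The clusters were seen in these same values, and their gaps within a group enter this difference. Its p-values are thus descriptive and give no independent support. The effect in the set of 6 exceeded that in the set of 4 by 3.70 ± 0.39 for Hmox1, 3.25 ± 0.13 for Srxn1, 2.34 ± 0.16 for Gclm and 2.00 ± 0.20 for Gclc (SE; adjusted p of at most 1.28e-05). For Nfe2l2 the difference was -0.08 ± 0.18 (adjusted p = 0.702). The library sets differ in their controls as well as in their stiripentol libraries, and a batch of culture, sequencing or normalization and the response to the drug cannot be told apart in them.

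**Figure D2:**
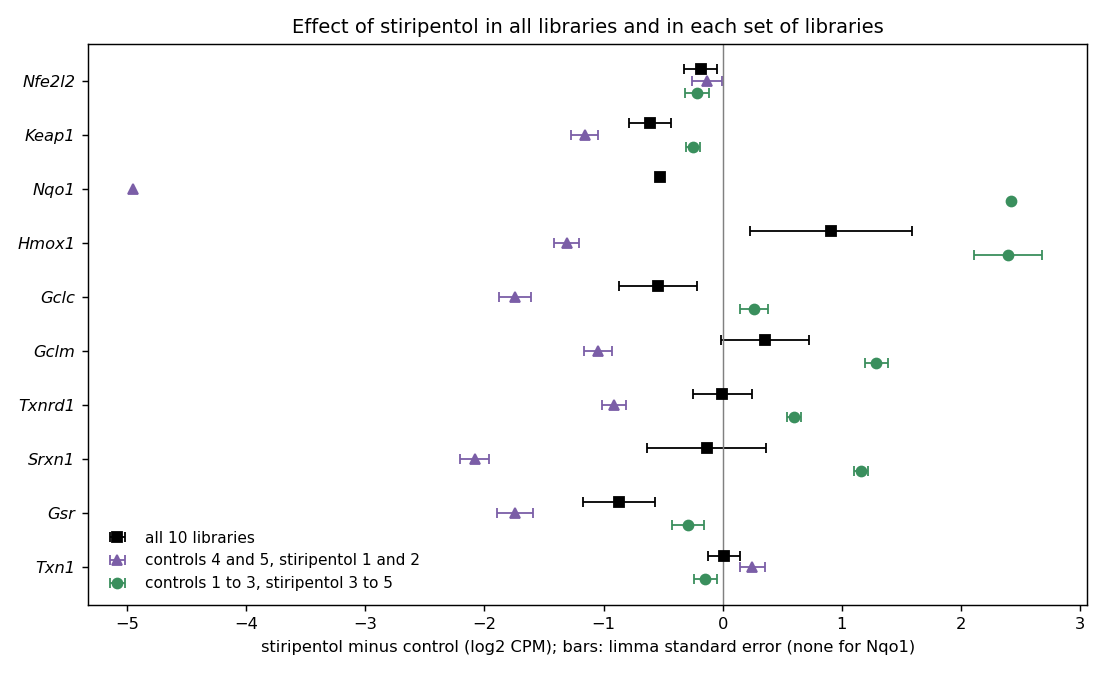
Log2 change with stiripentol (x axis, ± SE) of each member over all 10 libraries, in controls 4 and 5 against stiripentol 1 and 2, and in controls 1 to 3 against stiripentol 3 to 5. Hmox1, Gclm, Txnrd1 and Srxn1 lie on opposite sides of 0 in the library sets, Keap1 lies below 0 in both, and Nfe2l2 stays near 0.

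The level of the targets in the control libraries is part of this pattern and is given as a description, since the clusters were seen in these data. The means of controls 4 and 5 exceeded those of controls 1 to 3 by 3.00 for Hmox1, 1.39 for Gclm, 1.35 for Srxn1, 1.24 for Gclc and 0.55 for Txnrd1. Gsr, Keap1 and Txn1 differed by 0.15, 0.23 and 0.05, and Nfe2l2 by -0.35. A gap above 1 was thus present in 4 of the 9 tested members, where 8.26% of all genes had one. Controls 4 and 5 were both above each of controls 1 to 3 in 6 tested members, where 36.8% of all genes were. Among the stiripentol libraries, numbers 1 and 2 were both below each of numbers 3 to 5 in 9 of the 10 members, all but Txn1, and in 59% of all genes tested. The median over all genes was itself shifted by -0.26 and -0.18 in stiripentol 1 and 2, and by 0.10 to 0.12 in stiripentol 3 to 5, on the log2 scale.

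Ratios within a library do not depend on how the library was scaled. The log2 ratio of Gclm to Gclc was -0.78, -0.80, -1.49, -0.88 and -0.86 in controls 1 to 5 and -0.10, -0.25, 0.05, 0.01 and -0.04 in stiripentol 1 to 5. All stiripentol libraries were above all controls in both library sets. The RNA of the modifier subunit therefore gained on that of the catalytic subunit by 0.90, from -0.96 ± 0.30 to -0.07 ± 0.12 (SD, n = 5 each). The two-sided exact permutation test gave p = 0.00794, the smallest possible here, and 0.0238 adjusted over the 3 ratios. Of single genes tested, 27.2% had groups that did not overlap, and how often pairs of genes separate so was not tested. The gain was 0.69 in the set of 4 and 1.03 in the set of 6, where the smallest exact p-values these numbers of libraries allow, 0.333 and 0.1, were reached. With labels exchanged only within the sets, the exact permutation p was 0.0167, and 0.05 after adjustment over the 3 ratios, which is not below the threshold.

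The log2 ratio of Txnrd1 to its substrate Txn1 was -0.01, 0.17, 0.38, 0.64 and 0.72 in controls and -0.64, -0.33, 0.90, 0.90 and 0.99 with stiripentol. Stiripentol libraries were thus both the lowest and the highest, and the difference was -0.01 (two-sided exact permutation test, p = 0.968). The log2 ratio of Nfe2l2 to Keap1 was 1.98, 2.16, 1.82, 1.32 and 1.51 in controls and 2.34, 2.54, 1.97, 1.98 and 2.12 with stiripentol. Its mean was 1.76 ± 0.34 in controls and 2.19 ± 0.25 with stiripentol (SD, n = 5 each). This difference of 0.43 did not pass (exact permutation p = 0.0794, adjusted 0.119). It was 1.03 in the set of 4 and 0.03 in the set of 6 (exact permutation p = 0.333, the smallest possible, and 1). Without control 2 the pooled difference was 0.53, with an exact permutation p of 0.0238.

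**Figure D3:**
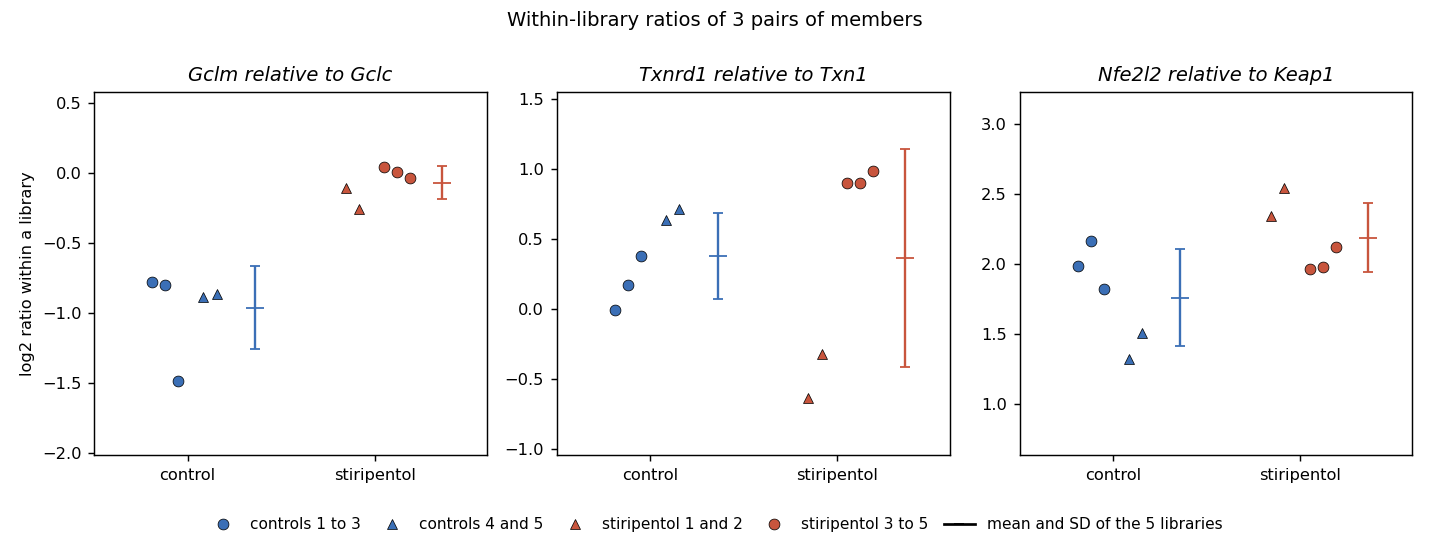
Log2 ratio (y axis) of Gclm to Gclc, Txnrd1 to Txn1 and Nfe2l2 to Keap1 within each of the 10 libraries, with points marked by library set and bars at the group mean ± SD. Only for Gclm to Gclc do all 5 stiripentol libraries, from -0.25 to 0.05, lie above all 5 controls.

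Further regulators of NRF2 comprised 16 genes with a row, all tested. Of these, 3 were called lower and 2 higher over all libraries, where 14.1% and 13.6% of all genes were. Sqstm1, whose protein p62 binds KEAP1 and draws it into autophagy, gave 9.22, 9.36, 9.78, 10.32 and 10.16 log2 CPM in controls and 10.68, 10.76, 10.88, 10.96 and 10.85 with stiripentol. Every stiripentol library was above every control, where 27.2% of all genes tested had groups that did not overlap. Sqstm1 rose by 1.06 ± 0.20 (SE; limma adjusted p = 0.00448), also within each set, by 0.48 and 1.44. Nfe2l1, a related factor that governs proteasome genes, rose by 0.66 ± 0.14 (adjusted p = 0.00596), with stiripentol libraries at 9.23 to 9.64 and controls at 8.60 to 9.23. The lowest stiripentol library was just above the highest control, and its rise was alike in both sets, at 0.74 and 0.61.

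The regulators that fell were Nfe2l3, Bach2 and Dcaf11. Nfe2l3, a further relative of NRF2, was at 0.82 to 1.72 log2 CPM in controls and at -1.10 to 0.40 with stiripentol, a change of -1.42 ± 0.33 (SE; limma adjusted p = 0.0105) on 26 to 207 reads per library. With stiripentol its mean was below 0, so it passed the filter through its control libraries, and its call was lost against controls 4 and 5 alone (adjusted p = 0.0691). Its effect was -1.95 in the set of 4 and -1.07 in the set of 6. Bach2, a repressor that competes for the same DNA elements, changed by -1.37 ± 0.42 (adjusted p = 0.0331) and far more in the set of 4, by -2.89, than in the set of 6, by -0.37. Dcaf11, an adaptor of another ubiquitin ligase for NRF2, changed by -0.47 ± 0.15 (adjusted p = 0.0382), by -0.89 in the set of 4 and -0.19 in the set of 6. The calls of Bach2 and Dcaf11 rest on single libraries: Bach2 lost its call without control 3, 4 or 5 or stiripentol 1 or 2, and Dcaf11 without control 2, 4 or 5 or stiripentol 1, 2, 3 or 4, with adjusted p-values of 0.0511 to 0.0782. Cul3, Rbx1, Bach1, Mafg, Maff and Mafk, which form the ligase, compete with NRF2 or pair with it, did not pass over all libraries, with differences of -0.29 to 0.34. In the set of 4, Cul3 was at 0.88, Mafk 0.35, Rbx1 -0.11, Maff -0.66, Bach1 -0.88 and Mafg -1.02, all but Rbx1 called. In the set of 6, Mafg was at 0.39 and Rbx1 at -0.30, both called, and the others at -0.01 to 0.11, not called. Of all genes, 46.5% were called lower and 25.7% higher in the set of 4, and 27% and 37.7% in the set of 6. The median of the 16 was -0.16 over all libraries, -0.32 in the set of 4 and 0.02 in the set of 6.

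Target genes beyond the members were taken from 4 lists: glutathione use, NADPH supply, heme and iron handling, and detoxification. Of their 40 genes with a row, 37 were tested, and over all libraries 2 were called lower and 1 higher, while 12 had an unadjusted p below 0.05. These counts were low beside the 14.1%, 13.6% and 41.7% of all genes given above. In the set of 4, 30 were called lower and 3 higher, where 46.5% and 25.7% of all genes were. In the set of 6, 3 were called lower and 26 higher, where 27% and 37.7% of all genes were. These counts, and the counts and medians that follow, include Gsta1, Gsta2 and Gsta3. These genes passed the filter through libraries other than controls 1 to 3, so part of their gap between the control subsets can follow from the filter. The same 20 genes fell in one set and rose in the other or the reverse, where 13.7% of all genes did. The interaction passed for 33, where it passed for 63.3% of all genes. Controls 4 and 5 exceeded controls 1 to 3 by over 1 in 22 of the 37, where 8.26% of all genes had such a gap. Controls 4 and 5 were both above each of controls 1 to 3 in 33, where 36.8% of all genes were. Medians were 0.01 over all libraries, -0.89 in the set of 4 and 0.58 in the set of 6.

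Among glutathione genes, 0 of 13 tested passed over all libraries in limma, with 5 at an unadjusted p below 0.05. In the set of 4, 11 were lower, where 46.5% of all genes were, and 11 were higher in the set of 6, where 37.7% were. The glutathione S-transferase Gstm1 was at 5.15, 5.16, 5.45, 7.90 and 8.03 log2 CPM in controls and at 6.89, 6.96, 6.39, 6.45 and 6.39 with stiripentol. As with Hmox1, its stiripentol libraries lay between both kinds of control. The cystine importer Slc7a11, whose substrate feeds glutathione synthesis, had another order: controls 4 and 5, at 5.33 and 5.37, were not above controls 1 to 3, at 5.78, 6.56 and 5.37. Stiripentol 1 and 2 were at 3.80 and 3.79 and stiripentol 3 to 5 at 6.74, 6.71 and 6.86, a difference of -1.56 in the set of 4 and 0.87 in the set of 6 (adjusted p = 8.60e-07 and 0.0203). Of these 11, 3 were Gsta1, Gsta2 and Gsta3, which had 19 to 96, 21 to 31 and 1 to 6 reads in controls 1 to 3 and passed the filter through the other libraries, so the size of their change in this set is not given. These are close paralogs whose reads may have been split or shared in counting. Gstm1 and Slc7a11, like the Gsta genes, were picked after their values were seen.

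In the NADPH list of 6 genes, Idh1 alone was called over all libraries. This cytosolic isocitrate dehydrogenase, a source of NADPH, was at 5.67, 5.59, 5.48, 6.18 and 6.29 log2 CPM in controls and at 4.05, 4.23, 4.85, 4.80 and 4.88 with stiripentol. The groups did not overlap, which held for 27.2% of all genes tested. Idh1 fell by 1.28 ± 0.22 (SE; limma adjusted p = 0.00277), with effects of -2.09 in the set of 4 and -0.74 in the set of 6. It was called whichever single library was left out. The pentose phosphate enzymes G6pdx, Pgd, Taldo1 and Tkt and the malic enzyme Me1 did not pass, with differences of -0.51 to 0.64.

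In the heme and iron list of 6 genes, the ferritin heavy chain Fth1 was called higher and the iron exporter Slc40a1 lower. Fth1 was at 10.51, 10.66, 11.05, 11.70 and 11.56 log2 CPM in controls and at 11.83, 11.74, 11.94, 12.01 and 11.89 with stiripentol, a pooled rise of 0.79 ± 0.22 (SE; limma adjusted p = 0.026). The rise lay in the set of 6, at 1.20, whereas the difference in the set of 4 was 0.16 (adjusted p = 0.163), and against controls 4 and 5 alone it was 0.25 (adjusted p = 0.148). Slc40a1 was at 5.61, 5.66, 5.70, 7.10 and 7.07 in controls and at 3.35, 3.74, 5.33, 5.33 and 5.51 with stiripentol, a change of -1.57 ± 0.50 (adjusted p = 0.0401). It was -3.54 in the set of 4 and -0.26 in the set of 6, and against controls 1 to 3 alone it was not called (adjusted p = 0.168). Neither gene had overlapping groups, which held for 27.2% of all genes tested, but both calls rest on single libraries. That of Fth1 was lost without control 1, 2 or 3 or stiripentol 4. That of Slc40a1 was lost without control 2, 3, 4 or 5 or stiripentol 1 or 2. The adjusted p-values were then 0.0519 to 0.0625 and 0.052 to 0.094. The ferritin light chain Ftl1 had a larger difference, 1.15 ± 0.49, that did not pass (adjusted p = 0.103), with controls 1 to 3 at 9.76 to 10.49, controls 4 and 5 at 12.40 and 12.18, and stiripentol libraries at 11.88 to 12.32. Its difference was -0.01 in the set of 4 (adjusted p = 0.955) and 1.92 in the set of 6. Of 12 detoxification genes, 0 passed in limma over all libraries, with 1 at an unadjusted p below 0.05. In the set of 4, 10 were lower, where 46.5% of all genes were, and 9 were higher in the set of 6, where 37.7% were.

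**Figure D4:**
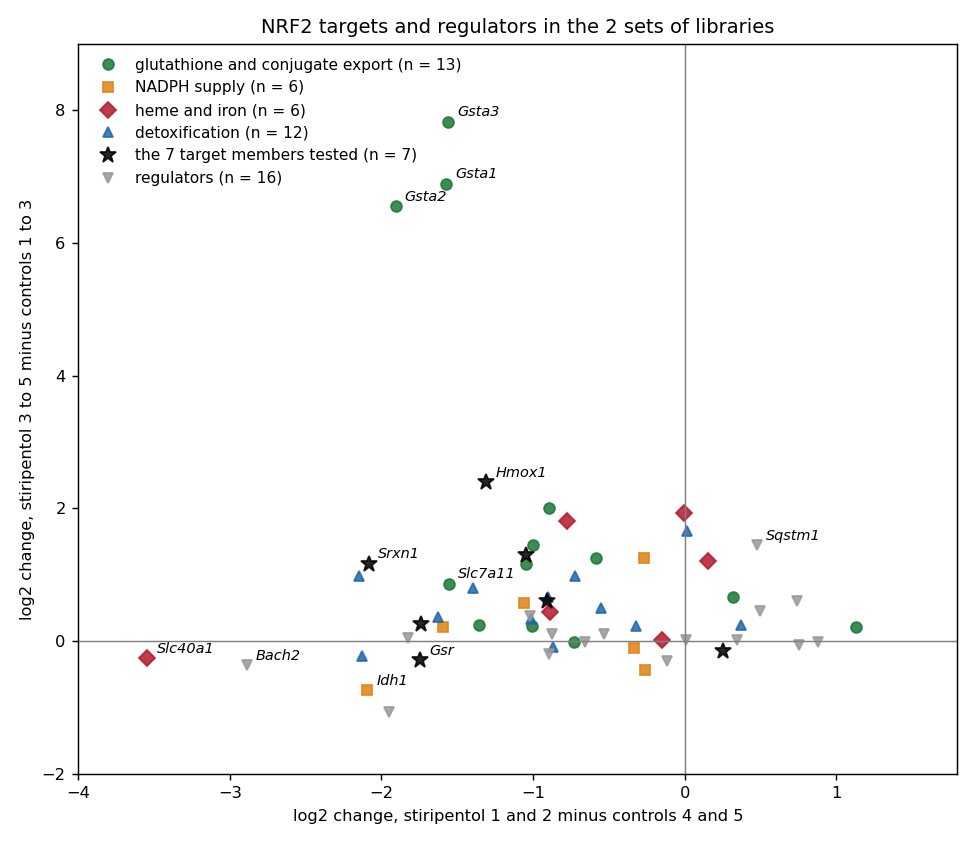
Log2 change with stiripentol in controls 4 and 5 against stiripentol 1 and 2 (x axis) and in controls 1 to 3 against stiripentol 3 to 5 (y axis) for the 7 target members tested, the regulators and the genes of the other target lists. Most targets lie at the upper left, lower in the first set and higher in the second, with medians of -0.89 and 0.58 for the 37 tested genes of the other lists. The 37 include Gsta1, Gsta2 and Gsta3, which passed the filter through libraries other than controls 1 to 3.

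A last list held thioredoxin and glutaredoxin genes beside the members. Of 11 tested, 2 were called higher and 2 lower over all libraries, where 13.6% and 14.1% of all genes were. In both sets with opposite signs, 0 were called, where 13.7% of all genes were. The mitochondrial thioredoxin Txn2 was at 7.05, 6.90, 6.88, 6.46 and 6.32 log2 CPM in controls and at 7.33 to 7.46 with stiripentol, a rise of 0.66 ± 0.14 (SE; limma adjusted p = 0.00754), by 0.96 in the set of 4 and 0.46 in the set of 6. Ggct, an enzyme of glutathione breakdown, rose by 0.77 ± 0.20 (adjusted p = 0.0166) on 101 to 406 reads, by 0.46 in the set of 4 and 0.98 in the set of 6. The glutaredoxin Glrx fell by 0.97 ± 0.24 (adjusted p = 0.0145), with controls at 5.80 to 6.12 and stiripentol libraries at 4.47 to 5.60. Its effect was -0.25 in the set of 4 (adjusted p = 0.056) and -1.46 in the set of 6. Txnrd3, a further thioredoxin reductase, fell by 0.90 ± 0.27 (adjusted p = 0.0332), with -1.28 in the set of 4 and -0.64 in the set of 6, a call lost without control 1, 2 or 3 or stiripentol 1 or 2, with adjusted p-values of 0.0576 to 0.076.

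The genes with the profiles most like that of Nfe2l2 over the 10 libraries were Ppp4r2, Irak1 and Evi5, with root mean square differences of 0.07, 0.08 and 0.08 log2 units after centring, where Nfe2l2 itself had an SD of 0.23. The closest to Hmox1, whose own SD was 1.27, were Fam124a, Tnxb and Ankrd13d, at 0.25, 0.27 and 0.29. These were the closest of 12305 genes compared.

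The labelled cell type was checked against its markers, since a shift in the kinds of cells would move with these results. The neuroendocrine factor Insm1 had at most 10 reads in a library and the synaptic vesicle gene Syp at most 20, whereas Ncam1 was at 6.54 to 7.27 log2 CPM and was called higher, by 0.46. Neurod1, Chga and Calca had no row among the expression values. The neuroendocrine markers with a row summed to 93.4 to 120.2 CPM in controls and 126.6 to 156.8 CPM with stiripentol. Nearly all of these sums came from Ncam1. Fibroblast markers summed to 402.2 to 683.6 CPM in controls and to 144.3 to 182.4 CPM with stiripentol, with 4 of 6, Col1a2, Col3a1, Pdgfra and Pdgfrb, called lower and Thy1 at 1 read or fewer. Of the immune markers, Ptprc had at most 3 reads, and Cd68, which is also a lysosomal gene, was called higher and the sum was at most 17.9 CPM in controls and at least 55.1 CPM with stiripentol. The tuft-type sum was at most 6.94 CPM in controls and at least 25.1 CPM with stiripentol through Avil, while Pou2f3, with 3 to 260 reads, was lower in every stiripentol library than in any control. The endothelial markers stayed at or below 1.07 CPM. The part of these shifts in the results above was not tested, and in bulk RNA fewer cells of a type and less RNA per cell cannot be told apart. Reads of Rb1 were present in every library, at 252 to 1443, but a count over the whole gene does not check the deletion of some of its exons.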

How the data were processed

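RNA libraries of 5 control and 5 stiripentol samples were analysed. The labels name a TruSeq total RNA kit, whereas the study's methods name 3′ mRNA libraries (Lexogen QuantSeq) and the HiSeq4000 or NovaSeq6000 sequencer. The build mm10 is from the submitters' processing notes, and the aligner and annotation are not given in the sources used here. The values the authors deposited are log2 CPM of each gene, normalized with GENAVi per the methods, with a prior added before the logarithm. Their group means, p-values, q-values and ratios were not used. Whole reads could be recovered, with 100% of values up to 2000 reads within 0.05 of a whole number, so depth is known and describes counting error only. Columns were matched to samples by name.

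The deposited log2 values were fitted with limma 3.58.1 in R 4.3.3 (lmFit, then eBayes with trend and without the robust option) and no covariate, on 12306 genes averaging above 0 on that scale, with Benjamini-Hochberg adjustment over all of them. Library sets were fitted alone and as an interaction. Exact permutation tests of ratios, two-sided, were run in Python 3.11.15 with numpy 2.4.6. Named genes were all members, the called genes of the other lists (at most 3 in each direction) and the 3 closest profiles to Nfe2l2 and Hmox1. Others are stated as picked after their values were seen. The members and lists were chosen with earlier results of these data known. Transcript copies were searched with blastn 2.17.0+ at a minimum of 95% identity over 100 nucleotides. The scripts were tested on simulated data. Alternatives were a replicate block, omission of single libraries, library set as a term or alone, 1 mean per group and set, other scalings, filters and pseudocounts, and limma voom on the recovered reads. Each control subset against all stiripentol libraries was added after seeing the data. The results of some marker genes are not reported here.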

Additional observations from a re-analysis of the deposited data

Results flagged for a closer look

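The effect of stiripentol differed between the library sets for 8 of the 9 tested members by the limma interaction, where 63.3% of all genes passed. The clusters of these sets were seen in these same data, so the p-values are descriptive. The difference is the effect in controls 1 to 3 against stiripentol 3 to 5 minus that in the other 4 libraries. On the log2 scale it was 3.70 for Hmox1, 3.25 for Srxn1, 2.34 for Gclm, 2.00 for Gclc, 1.51 for Txnrd1, 1.45 for Gsr, 0.91 for Keap1 and -0.40 for Txn1. The adjusted p-values ran from 8.33e-08 for Srxn1 to 0.0395 for Txn1.

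Of 28 groups of 5 values searched for a library far from the others, 2 had one, and chance gives about 1.4. The log2 ratio of Gclm to Gclc was -1.49 in control 3, where the other controls lay between -0.88 and -0.78. Control 5 held 22375625 reads, the fewest of the controls.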

How the results depend on the processing

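Over all libraries, 1 of the 9 tested members was called lower and 0 higher, where 14.1% and 13.6% of all genes were. Leaving out 1 library in turn gave 0 to 2 lower. With library set as a term, quantile normalization or median scaling it was 2 lower, Keap1 and Gsr. The count lower was 7 in the set of 4 (controls 4 and 5 with stiripentol 1 and 2), where 46.5% of all genes were lower. It was 0 with 1 mean per group and set or for controls 1 to 3 against all stiripentol libraries. Keap1 was not called against controls 1 to 3 alone (adjusted p = 0.0844) or controls 4 and 5 alone (0.0856). Voom on the recovered reads gave 1 lower and 0 higher. The count higher was 4 in the set of 6 and 2 for controls 1 to 3 against all stiripentol libraries, where 37.7% and 20.1% of all genes were higher. In the other lists, 16 regulators, 37 targets and 11 thioredoxin and glutaredoxin genes were tested. The targets include Gsta1, Gsta2 and Gsta3, which passed the filter through libraries other than controls 1 to 3. Of the genes of these lists, 7 were lower and 5 higher, where 14.1% and 13.6% of all genes were. Leaving out 1 library gave 3 to 7 lower and 4 to 13 higher, with 13 higher without control 4 and 11 without control 5. With set as a term, 13 were lower and 13 higher, and with 1 mean per group and set 0 and 0. In the set of 4 the counts were 39 and 14, where 46.5% and 25.7% of all genes were called. In the set of 6 they were 11 and 34, where 27% and 37.7% were. Controls 4 and 5 against all stiripentol libraries gave 16 lower, where 9.87% of all genes were. Controls 1 to 3 against them gave 23 higher, where 20.1% of all genes were. Without the filter 3 were lower, where 1747 of 26335 genes were. Over all genes, 1740 were lower and 1674 higher. With set as a term it was 3336 and 2908, in the set of 4 5726 and 3158, in the set of 6 3322 and 4637, and with 1 mean per group and set 0 and 0 in limma, with 1116 at an unadjusted p below 0.05.

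The replicate numbers of the labels do not pair the libraries: deviations of same-numbered libraries correlated at -0.24 to 0.06. With the replicate block, 1062 genes were lower and 1020 higher, Keap1 was still called (adjusted p = 0.0448), Dcaf11, Txnrd3 and Ggct were not (0.0584, 0.0958 and 0.0569), and the gain of Gclm on Gclc, 0.90, had an exact p of 0.0625, the smallest that 5 pairs allow. That gain was 0.69 in the set of 4 and 1.03 in the set of 6. The ratio of Nfe2l2 to Keap1 passed without control 2, at 0.53, over a range of 0.32 to 0.53. The ratio of Txnrd1 to Txn1 turned sign, from -0.17 to 0.24 without single libraries and 0.75 in the set of 6.

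Signs of the single genes that did not pass over all libraries turned as follows. In the set of 4, Hmox1 was -1.31 and Gclm -1.05. In the set of 6, Gclc was 0.26, Txnrd1 0.60, Srxn1 1.16 and Txn1 -0.15. Against controls 4 and 5 alone, all stiripentol libraries gave -0.89 for Hmox1, -0.48 for Gclm, 0.03 for Nfe2l2 and -0.02 for Txn1, and against controls 1 to 3 alone 0.22 for Txnrd1 and 0.41 for Srxn1. Txnrd1 was 0.03 with quantile normalization, 0.06 with median scaling and 0.00 with voom. Without single libraries, Txnrd1 ran from -0.11 to 0.16, Srxn1 from -0.33 to 0.19 and Txn1 from -0.07 to 0.06. Leaving out 1 library moved Hmox1 from 0.49 (without control 1) to 1.39 (without control 4), Gclm from 0.17 (control 3) to 0.58 (control 4), Gclc from -0.72 (control 1) to -0.34 (control 4) and Nfe2l2 from -0.25 (control 4) to -0.09 (control 2). Against controls 4 and 5 alone, Nfe2l3, Bach2, Fth1, Glrx, Txnrd3 and Ggct were not called (adjusted p = 0.0569 to 0.297), and against controls 1 to 3 alone Bach2, Dcaf11 and Slc40a1 were not (0.0887 to 0.168). The cause of these changes was not tested. The interaction held for 7 or 8 members without single libraries. Sqstm1, Nfe2l1, Idh1 and Txn2 lost their calls only with 1 mean per group and set, with adjusted p-values of 0.456 to 0.558. Depth limits Nqo1, with 3 to 237 reads per library.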
